A study of Mus musculus with 2 samples.

Results

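The ribosome is built from ribosomal RNA and one copy of most of its proteins, which sit in a small (40S) and a large (60S) subunit. Cells make these proteins in step, and their mRNAs are among the most abundant of any cell. Many of these mRNAs start with an oligopyrimidine tract, a run of C and T letters that ties their translation to mTOR signalling. In blood formation these genes are known from Diamond-Blackfan anaemia, a human marrow failure caused by loss of a single copy of a ribosomal protein gene.

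The cytosolic ribosomal protein genes were chosen by name. They are the protein-coding mouse genes whose symbol is Rpl or Rps followed by a digit, with Rplp0, Rplp1, Rplp2 and Rpsa added, and with S6 kinases and pseudogene symbols left out. This gave 86 of 31053 counted genes. Of these, 77 encode the usual subunit proteins, 31 of the small subunit, 43 of the large subunit and 3 of the P stalk, the arm that recruits elongation factors. A further 8 are paralogs (Rpl3l, Rpl7l1, Rpl10l, Rpl22l1, Rpl36al, Rpl39l, Rps27l and Rps27rt). The last, Rps19bp1, matches the naming rule but encodes a protein that binds Rps19 and is not part of the ribosome.

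The cells studied were LSK cells, sorted for c-Kit and Sca1 and against lineage markers, a gate that holds mouse blood stem cells and early progenitors. The cells came from the spleen and from the bone marrow of C57BL/6 mice aged 6 to 8 weeks at injection. All of these mice had received 750000 Hepa1-6 mouse hepatoma cells in 25 µl of matrix in the left liver lobe, so both tissues come from tumour bearers. Each tissue gave 1 droplet 3′ RNA library. The number of mice behind each is not stated and mice without a tumour are not analysed here. With 1 library per tissue no difference was checked against replicates and no test was run. Intervals are 95% intervals for counting error only, and tissue, sort and library preparation differ together.

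Counts are of UMIs, the tags that mark single captured molecules. There were 85937174 of them from 6546 spleen cells (median 9978 per cell), against 73740963 from 10088 bone marrow cells (median 5991 per cell). The deposited mouse cell atlas labels placed 54.1% of spleen cells and 3.07% of bone marrow cells in dendritic, mast, basophil, eosinophil, T, NK, B, plasma, monocyte or macrophage classes. Monocyte progenitors are counted among these, 10 cells in spleen and 189 in bone marrow. The sum of 12 dendritic marker genes was 18262 CPM in spleen and 1055 CPM in bone marrow, where CPM are UMIs scaled to a total of 1000000 per library. The stem cell gene Hlf stood at 71.1 CPM in spleen and 413 CPM in bone marrow. The libraries shared 16 cell barcodes. Values without the cells of other lineages are given below for the main counts and for several of the genes. The clusters of the deposited cell table still differ in weight between the tissues in those values. Without the other-lineage labels, spleen held 881 MEP and 1077 HSC-1 cells, and bone marrow 357 MEP and 5047 HSC-1 cells. The values are sums of UMIs, so the deeper MEP cells weigh more than their number shows. With all cells kept, median UMIs per cell in spleen were 36084 in MEP and 6934 in HSC-1. In bone marrow they were 11230 and 4794. MEP then supplied 36.8% of all UMIs in spleen and 5.69% in bone marrow.

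The start of transcription carries the oligopyrimidine tract, so the 30 bases around the RefSeq start site are shown for some of the genes described below. They are Rplp0 and Rps27l, with the highest ratios of spleen to bone marrow, Rpl39 and Rps21, with low ratios, and the partners Rplp2 and Rps27. Each window (GRCm38.p6) runs from 10 bases before the start to 20 bases from it, so the first transcribed base is the letter 11 of the line. Capitals mark the run of at least 5 C or T letters, beginning with C, that lies nearest to the start. The windows are chr5:115559457-115559486 (plus strand) for Rplp0, chr9:66946076-66946105 (plus) for Rps27l, chrX:37085203-37085232 (minus) for Rpl39, chr2:180257369-180257398 (plus) for Rps21, chr7:141447641-141447670 (plus) for Rplp2 and chr3:90213629-90213658 (minus) for Rps27.
Rplp0: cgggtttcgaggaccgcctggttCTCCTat
Rps27l: cctccccgccgCCTCTatcccggaagttgc
Rpl39: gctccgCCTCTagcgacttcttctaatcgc
Rps21: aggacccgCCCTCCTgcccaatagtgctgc
Rplp2: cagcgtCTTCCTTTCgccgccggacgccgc
Rps27: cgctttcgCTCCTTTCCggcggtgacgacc

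Rps21, Rplp2 and Rps27 hold a C at the annotated start shown, followed by at least 4 further C or T letters. The windows of Rpl7a and Rpl13a, with high ratios, and Rps24, with a low ratio, are not shown. Their nearest runs held 17, 14 and 8 letters, and none of these genes met this rule at the start. In the counts that follow, a gene is included if any of its annotated starts meets the rule. Among the 66 ribosomal protein genes with a RefSeq promoter sequence, 14 (21.2%) had such a start, against 813 of 27025 genes with a promoter sequence (3.01%). These 14 were Rpl14, Rpl15, Rpl28, Rpl35, Rpl35a, Rpl38, Rplp2, Rps6, Rps10, Rps15a, Rps18, Rps21, Rps27 and Rps27rt. Within 10 bases of the start on either side, 60.6% of the ribosomal protein genes and 34.4% of all genes held such a run. The count at the start itself depends on the exact annotated base, so a gene outside the 14 is not shown to lack the tract. The letters CCGGAAG, the core of the motif bound by Ets family factors, were found on one strand or the other in the 300-base windows of 39.4% of the ribosomal protein genes and 9.93% of all genes.

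The ribosomal protein genes took nearly the same part of the RNA in both tissues. They made up 29.25% of UMIs in spleen (29.24 to 29.26%) and 29.48% in bone marrow (29.47 to 29.49%), a ratio of 0.992. This ratio lies on either side of 1 by scaling: it was 1.067 with TMM scaling, and 1.071 with the cells of other-lineage labels left out (31.5% in spleen, 29.4% in bone marrow). Per cell the median share was 28.5% in spleen (5th to 95th percentile 13.5 to 35.4%) and 29.3% in bone marrow (23.0 to 34.5%). With every cell thinned to 3700 UMIs the medians were 29.0% in 5874 spleen cells and 29.6% in 9081 bone marrow cells, which leaves out 672 shallower cells of spleen and 1007 of bone marrow. Before thinning the spleen cells thus spread further towards low shares than the bone marrow cells. After thinning, without the shallower cells, the 5th percentiles were nearer, at 21.2% in spleen and 23.7% in bone marrow. The low end is described below. Mitochondrial UMIs had a median of 3.24% per cell in both libraries.

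Of the 86 genes, 83 reached a mean of 10 CPM over both libraries and were compared by size. At a limit of 1.5-fold, 1 of the 83 was higher in spleen and 0 were lower, where 10.8% of all 8644 genes compared were higher and 18.3% were lower. The log2 ratio of spleen to bone marrow, with 1 CPM added to each, had a median of 0.02 over the 83 genes (quartiles -0.13 and 0.13). Over all genes it was -0.11. TMM scaling moves all genes up together, to medians of 0.13 for the ribosomal protein genes and -0.01 for all genes. By subunit the medians were -0.02 for the small subunit, 0.03 for the large subunit and 0.07 for the stalk. Without the cells of other-lineage labels they were 0.10, 0.19 and 0.18, beside -0.14 over all genes.

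**Figure D1:**
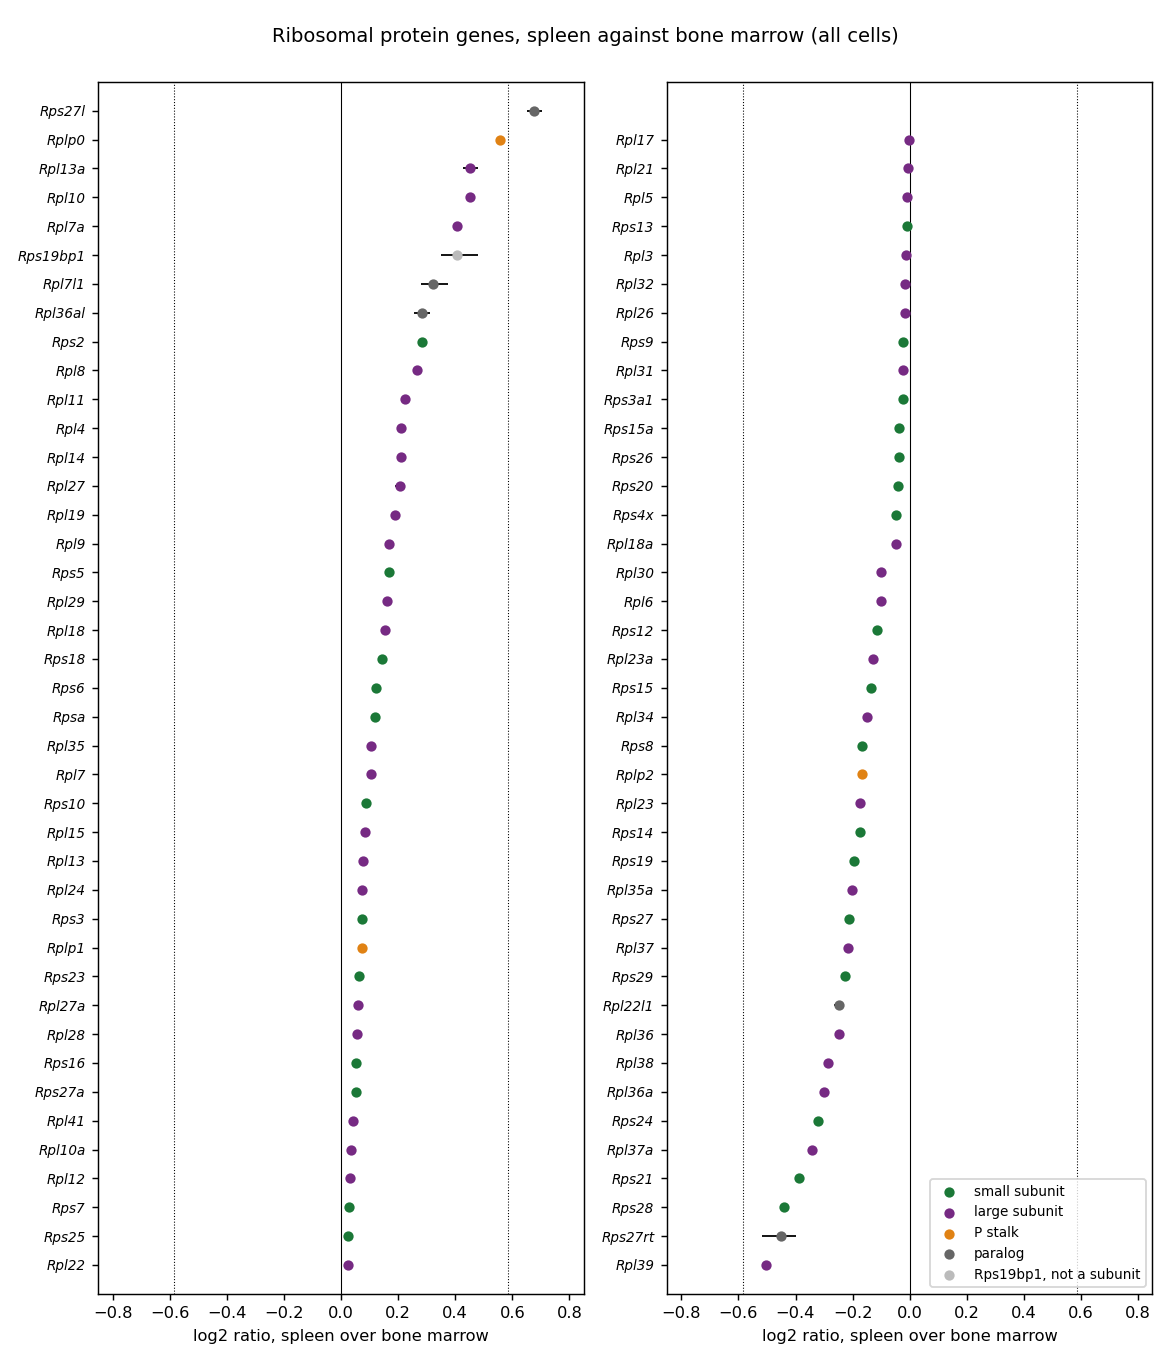
Log2 ratio of spleen to bone marrow for the ribosomal protein genes compared and reported here, all cells, 1 library per tissue. Points are coloured by subunit, black lines are 95% counting intervals, mostly hidden by the points, and dotted lines mark 1.5-fold; Rps27l lies past the upper line and Rpl39 is lowest at -0.50.

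The 3 genes of the stalk differed among themselves. Rplp0, the protein at the base of the stalk, stood at 4801 CPM in spleen and 3262 CPM in bone marrow, a ratio of 1.472 (1.465 to 1.479). Its partners Rplp1 and Rplp2, the acidic proteins that bind to it in pairs, had ratios of 1.05 and 0.890. Rplp1 had 6454 CPM in spleen and 6137 CPM in bone marrow, and Rplp2 had 3745 CPM in spleen and 4207 CPM in bone marrow. Rplp1 and Rplp2 each have a similar 3′ end in another counted gene, so part of their reads may be missing from their counts. The gene similar to Rplp1 had 80.65 CPM in spleen and 65.91 CPM in bone marrow. That similar to Rplp2 had 93.36 CPM in spleen and 110.5 CPM in bone marrow. The Rplp0 value was above that of bone marrow in the 7 clusters with at least 100 cells in each library, with log2 ratios from 0.33 in LP and MEP to 0.65 in MP. With other-lineage labels left out the Rplp0 ratio was 1.65. In HSC-1 without those labels it was 1.45, from 4120 CPM in spleen and 2849 CPM in bone marrow.

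In the large subunit, Rpl13a, Rpl10 and Rpl7a had the highest ratios. Rpl10, which joins the large subunit at the last step of its assembly, had 2522 CPM in spleen and 1844 CPM in bone marrow (ratio 1.37). Rpl13a had 337 CPM in spleen and 246 CPM in bone marrow (ratio 1.37), and Rpl7a had 1876 CPM in spleen and 1416 CPM in bone marrow (ratio 1.33). Each of these has a similar 3′ end in another counted gene, and Rpl13a overlaps a counted gene on the same strand, so part of their reads may be missing from their counts. Few UMIs were assigned to the similar genes. That of Rpl10 had 34.4 CPM in spleen and 29.9 CPM in bone marrow, and that of Rpl7a 2.20 and 2.28 CPM. Those of Rpl13a had at most 0.407 CPM. At the low end Rpl39, which lines the exit tunnel of the ribosome, had 3164 CPM in spleen and 4481 CPM in bone marrow, 1.42-fold lower in spleen. Rpl37a had 3141 CPM in spleen and 3978 CPM in bone marrow. Rpl36a had 1493 CPM in spleen and 1837 CPM in bone marrow. Rpl38 had 2343 CPM in spleen and 2856 CPM in bone marrow, and Rpl36 had 3132 CPM in spleen and 3720 CPM in bone marrow. Rpl38 is known in the mouse embryo for its part in patterning the skeleton. The Rpl36a and Rpl36 differences were small without the other-lineage labels, with log2 ratios of -0.03 and -0.07, while that of Rpl39 was -0.48.

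Rpl5 and Rpl11, which carry the 5S RNA and can bind Mdm2 when free, had ratios of 0.993 and 1.17. Rpl5 stood at 2442 CPM in spleen and 2459 CPM in bone marrow, and Rpl11 at 3577 CPM in spleen and 3060 CPM in bone marrow. Rpl3, at the peptidyl transferase centre, differed little, with 3401 CPM in spleen and 3433 CPM in bone marrow. Rpl22, which mice need for the development of alpha-beta T cells, had 2037 CPM in spleen and 2004 CPM in bone marrow.

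In the small subunit, Rps2, near the mRNA entry site, was among the genes with high ratios, with 4834 CPM in spleen and 3973 CPM in bone marrow (ratio 1.22). The lowest was Rps28, with 2388 CPM in spleen and 3239 CPM in bone marrow, 1.36-fold lower in spleen. Rps21 followed with 2697 CPM in spleen and 3533 CPM in bone marrow (ratio 0.763), and Rps24 with 6124 CPM in spleen and 7649 CPM in bone marrow (ratio 0.801). Rps6, the protein phosphorylated by S6 kinase, had a ratio of 1.09. Rpsa, also known as the laminin receptor, had a ratio of 1.09 too. Rps14, lost in the human 5q- syndrome, had a ratio of 0.886, and Rps19, the gene first linked to Diamond-Blackfan anaemia, had 0.873.

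The order of the ratios followed the length of the protein. Over the 77 subunit genes, the log2 ratio was higher at greater coding length, with a Spearman rho of 0.59 and a Pearson r of 0.61 on log2 length, as a description across genes of 1 pair of libraries. The 24 genes with less than 400 coding bases had a median log2 ratio of -0.19, and 19 of them lay below 0. The 53 longer ones had a median of 0.06, and 20 lay below 0. The relation was present within the 7 clusters compared, with rho from 0.34 in DCP to 0.70 in HSC-1. In HSC-1 without the cells of other-lineage labels it was 0.72, with medians of -0.07 for the short and 0.17 for the long genes. Among 120 other genes of 500 CPM or more rho was -0.35, the opposite sign. Rpl41, the shortest, with 138 coding bases, had a log2 ratio of 0.04. Its 3′ end is shared with another counted gene.

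**Figure D2:**
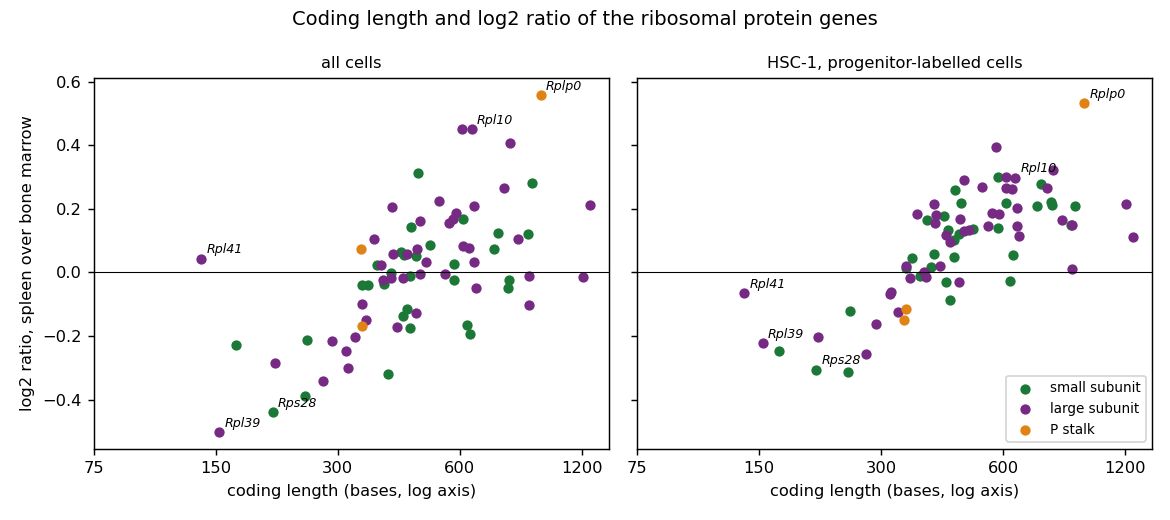
Log2 ratio of spleen to bone marrow against annotated coding length (bases, log axis) for the 77 subunit genes, in all cells (left) and in HSC-1 cells without other-lineage labels (right). Each point is a gene, coloured by subunit; short genes such as Rpl39 and Rps28 lie below 0 and Rplp0, among the longer ones, lies highest, with rho 0.59 on the left and 0.72 on the right.

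Some paralogs differed from their partners. Rps27l, a paralog of Rps27 and a known p53 target, was the gene past 1.5-fold, with 399.6 CPM in spleen and 249.7 CPM in bone marrow (ratio 1.60, interval 1.57 to 1.63). Rps27 itself had 2126 CPM in spleen and 2466 CPM in bone marrow. Rps27l thus made up 15.8% of the UMIs of the pair in spleen and 9.20% in bone marrow. It was highest in MEP, with 638 CPM in spleen and 431 CPM in bone marrow, which is 25.0% of the pair in spleen and 15.3% in bone marrow. In HSC-1 it had 233 CPM in spleen and 186 CPM in bone marrow, and in HSC-2 329 CPM in spleen and 333 CPM in bone marrow. MEP supplied 36.8% of all UMIs in spleen and 5.69% in bone marrow. No cluster with at least 100 cells in each library passed 1.5-fold for this gene. With the clusters weighted alike the log2 ratio was 0.26, against 0.68 over all cells.

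Rpl22l1, the paralog of Rpl22, had 647 CPM in spleen and 768 CPM in bone marrow. Its part of the pair ran from 18.03% in MP to 36.0% in MCP in spleen, and from 23.3% in MP to 32.1% in DCP in bone marrow. The largest difference of this pair was in DCP, with 419 CPM in spleen and 786 CPM in bone marrow, 1.88-fold lower in spleen. Rpl36al had 295 CPM in spleen and 242 CPM in bone marrow, and made up 28.6% of its pair with Rpl36a in spleen MP, against 18.1% in bone marrow MP. In DCP the same share was 22.4% in spleen and 10.9% in bone marrow. Rpl36al overlaps a counted gene on the same strand, and Rpl36a has a similar 3′ end in another counted gene. Most DCP and MP cells of the spleen (84.8% and 99.6%) and few DCP but most MP cells of the bone marrow (0.794% and 67.8%) carried other-lineage labels. The sum of dendritic markers was 47548 CPM in spleen DCP and 752 CPM in bone marrow DCP, and 66104 CPM in spleen MP and 28439 CPM in bone marrow MP. Their part in these paralog shares was not tested.

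Rps27rt, a retrogene copy of Rps27, had 49.7 CPM in spleen and 68.3 CPM in bone marrow, 1.37-fold lower in spleen, and cannot be told fully apart from Rps27 by its 3′ end. Rpl7l1 had 98.6 CPM in spleen and 78.6 CPM in bone marrow. Rpl3l, known from heart and skeletal muscle, had 129 UMIs in spleen and 240 UMIs in bone marrow, and 83 of the 129 spleen UMIs came from LP, against 29 of the 240 in bone marrow LP. In CPM this is 14.1 in spleen LP and 5.77 in bone marrow LP. In spleen LP 82.7% of the cells carried other-lineage labels, and the 10 T-lineage markers summed to 3905 CPM, against 1.17% and 114 CPM in bone marrow LP. Rpl39l had 39 UMIs in spleen and 35 in bone marrow. Rpl10l, known from the testis, had 0 UMIs in spleen, which allows up to 3, and 1 UMI in bone marrow. Rps19bp1 had 55.8 CPM in spleen and 41.8 CPM in bone marrow (ratio 1.33).

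**Figure D3:**
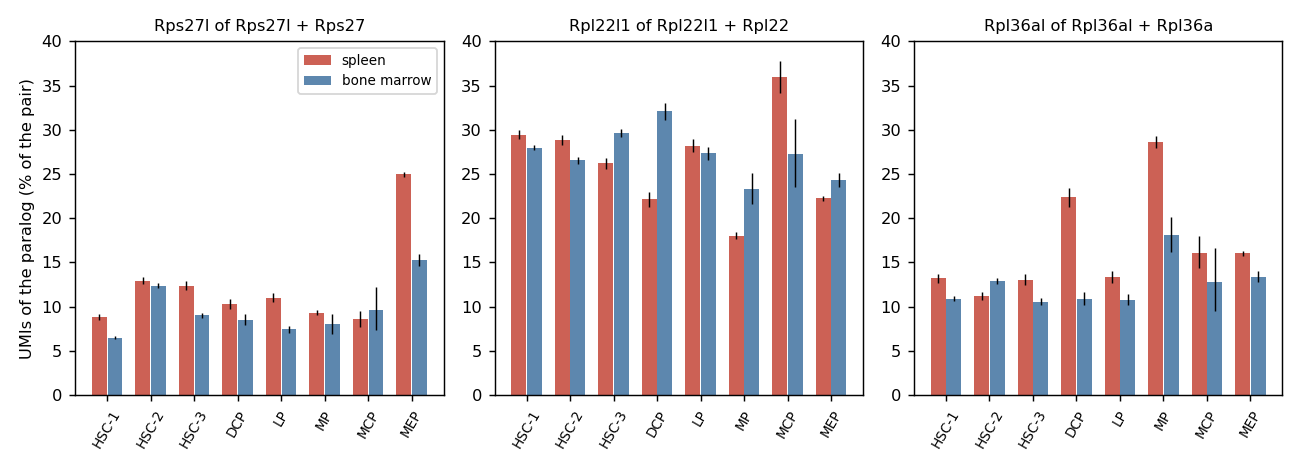
UMIs of 3 paralogs as a percentage of the pair with the usual gene, in the 8 deposited clusters of spleen (red, left bars) and bone marrow (blue, right bars). Error bars are 95% binomial intervals for counting error; Rps27l is highest in spleen MEP at 25.0%, Rpl22l1 in spleen MCP at 36.0% and Rpl36al in spleen MP at 28.6%.

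The deposited cell table assigns every cell to 1 of 8 clusters. These were drawn from all genes, so levels between clusters are a description. In spleen the share of ribosomal protein UMIs was highest in MEP (32.0%) and HSC-2 (31.4%), followed by HSC-1 (28.9%), LP (28.3%), HSC-3 (27.8%), MP (26.5%), DCP (23.2%) and MCP (19.2%). In bone marrow it was highest in MEP (32.9%), LP (30.9%) and HSC-2 (30.7%), followed by HSC-1 (28.8%), HSC-3 (28.5%), MCP (27.9%), DCP (26.5%) and MP (24.8%). MEP led and HSC-2 stood above HSC-1 and HSC-3 in both tissues.

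The ratio of spleen to bone marrow was 1.006 in HSC-1, 1.021 in HSC-2, 0.973 in HSC-3 and 0.974 in MEP. It was 0.876 in DCP, 0.914 in LP and 1.067 in MP. At 1.5-fold, 0 of the 83 ribosomal protein genes passed in the 3 HSC clusters, LP or MEP. Of all genes compared, 4.96% were higher and 5.48% lower in HSC-1, 1.67% and 2.77% in HSC-2, 5.77% and 8.77% in HSC-3, 8.90% and 10.7% in LP, and 7.46% and 13.5% in MEP. In DCP 4 were lower in spleen, Rpl22l1, Rpl36a (1.78-fold), Rpl36 (1.55-fold) and Rpl37a (ratio 0.666), where 32.5% of all genes were lower and 13.7% higher. In MP 2 were higher in spleen, Rpl10 (1.69-fold) and Rplp0 (1.57-fold), where 8.03% of all genes were higher and 29.7% lower.

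Leaving out the other-lineage labels changed this picture for the HSC clusters. The ratio was then 1.062 in HSC-1, 1.039 in HSC-2 and 1.048 in HSC-3, 0.978 in LP and 0.975 in MEP, while DCP and MP had under 100 such cells in a library. In HSC-1 30.02% of the spleen cells and 0.0396% of the bone marrow cells carried other-lineage labels. In HSC-2 these were 13.7% and 8.85%, and in HSC-3 42.8% and 0.406%. The labels left out include monocyte progenitors, 10 cells in spleen and 189 in bone marrow. Their shares of ribosomal protein UMIs were 31.7% and 32.4%, and their part in these moves was not tested. The MEP comparison joins cells of unequal depth, with median UMIs per cell of 36084 in spleen and 11230 in bone marrow. Its ratio was 0.999 after thinning, which also gives every cell the same weight. The median share per MEP cell hardly moved with thinning. It was 32.2% in spleen and 33.0% in bone marrow before, and 32.2% and 33.1% after. Over all cells without those labels 3 of the 83 genes were higher by 1.5-fold, Rps27l (2.07-fold), Rps19bp1 (1.70-fold) and Rplp0 (1.65-fold), where 14.9% of all genes were higher and 24.5% lower. Within HSC-1, HSC-2, HSC-3, LP and MEP without those labels, 0 of the 83 passed in either direction. Of all genes compared there, 1.63% were higher and 2.17% lower in HSC-1, 1.51% and 2.61% in HSC-2, and 4.40% and 7.05% in HSC-3. In LP these shares were 7.08% and 10.7%, and in MEP 7.65% and 13.7%. The part of cluster weights in the values of the 3 genes was not tested.

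**Figure D4:**
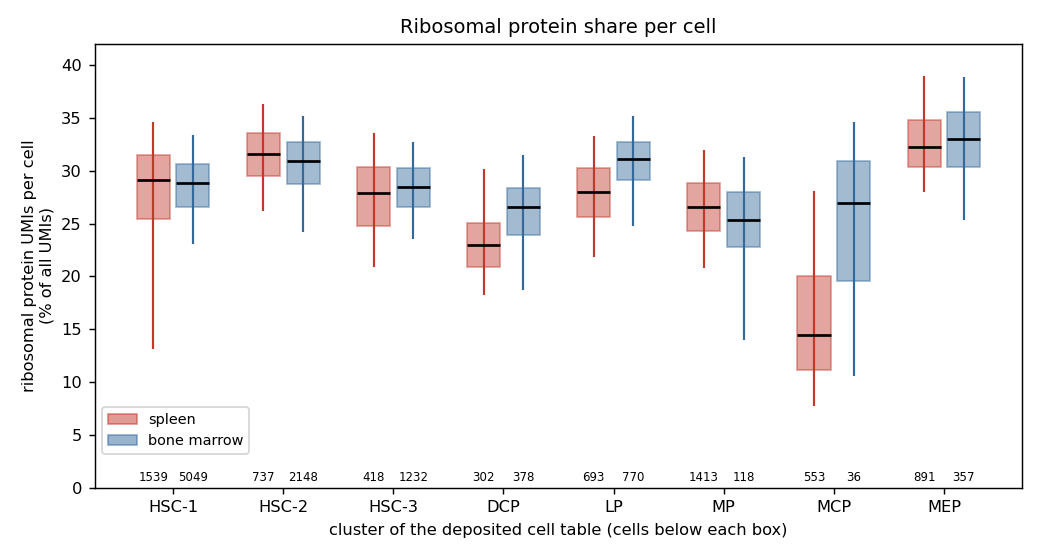
Ribosomal protein UMIs as a percentage of all UMIs per cell, by deposited cluster, for spleen (red, left) and bone marrow (blue, right); boxes span the quartiles, black lines are medians, whiskers are the 5th and 95th percentiles and numbers are cells. Spleen MCP lies lowest, with a median of 14.4%, and the lower whisker of spleen HSC-1 reaches 13.1%.

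In spleen, MCP had the lowest share of ribosomal protein mRNA. The median share per cell was 14.4% in 553 spleen cells and 26.9% in 36 bone marrow cells, a number too small to compare by the limit of 100 cells. The cells also differed by label. In spleen MCP 447 were labelled mast and 85 basophil, and in bone marrow MCP 7 were labelled mast and 14 basophil. Spleen MCP cells had a median of 1827 UMIs, against 4325 in bone marrow MCP, and the nuclear RNA Malat1 stood at 54131 CPM, against 19817 CPM. Within spleen MCP the median share was 12.9% in the 35 cells under 1000 UMIs, 13.2% from 1000 to 2000, 13.6% from 2000 to 4000, 23.8% from 4000 to 8000 and 27.6% in the 19 cells above. Low share, low depth and high Malat1 went together, and the part of RNA quality in this was not tested. Median mitochondrial UMIs were 3.67% in spleen MCP and 3.31% in bone marrow MCP.

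The genes did not stand equally low there, given by value only, since bone marrow MCP holds 36 cells of a different label makeup. Rps28 had 1453 CPM in spleen MCP and 3246 CPM in bone marrow MCP. Rps24 had 6089 CPM in spleen MCP and 7459 CPM in bone marrow MCP, and Rpl22l1 had 642 CPM in spleen MCP and 681 CPM in bone marrow MCP. As a share of all ribosomal protein UMIs, Rps27l had a range of 3.08-fold over the 16 sums of library and cluster, from 0.0646% in bone marrow HSC-1 to 0.199% in spleen MEP. For Rps19bp1 the range was 2.29-fold, from 0.0116% in bone marrow LP to 0.0267% in spleen MEP.

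In the whole spleen library 429 cells had a share under 15%, and 412 of them carried mast cell labels. Of the 429, 305 were in MCP and 114 in HSC-1. Bone marrow had 22 such cells, 3 of them labelled mast. Across the deposited atlas labels, mast cells had 16.5% in 632 spleen cells and 17.1% in 7 bone marrow cells, and dendritic cells 25.6% in 1910 spleen cells and 23.7% in 68 bone marrow cells. T cells had 27.5% in 747 spleen cells and 23.8% in 7 bone marrow cells. Among progenitor labels the spleen value was 30.6% for Ctla2a-high multipotent progenitors (29.4% in bone marrow), 31.0% for fetal-liver stem and progenitor cells (28.8% in bone marrow) and 32.7% for megakaryocyte progenitors (29.6% in bone marrow). Erythroid cells had 31.9% in spleen and 33.3% in bone marrow.

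**Figure D5:**
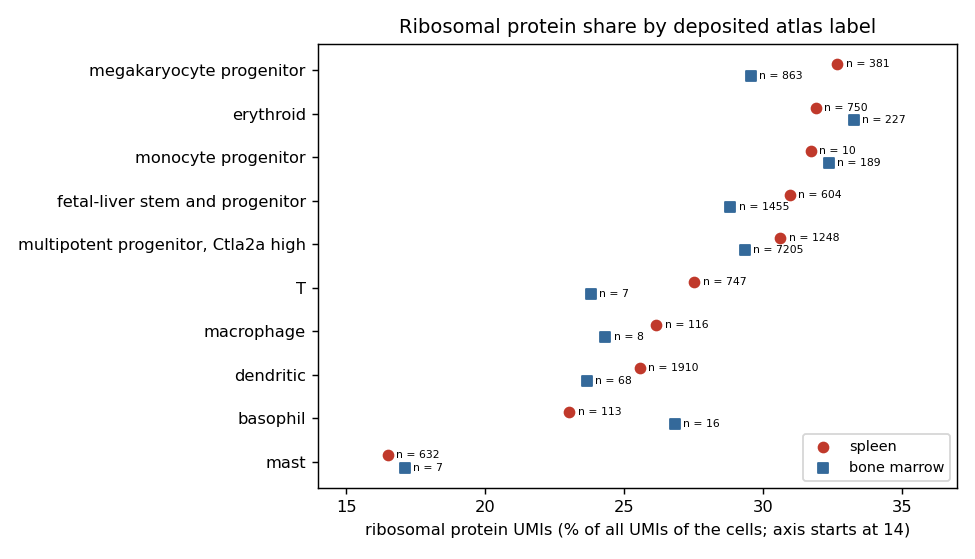
Ribosomal protein UMIs as a percentage of all UMIs of the cells under each deposited atlas label, for spleen (red circles) and bone marrow (blue squares), with the number of cells beside each point. Mast-labelled cells lie lowest in both tissues, at 16.5% in spleen and 17.1% in bone marrow, and the axis starts at 14%.

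Genes with a similar pattern were sought over the 16 sums of library and cluster, as the Pearson correlation of log2 CPM with the summed ribosomal protein genes. The sums share libraries, and the correlations are a description. The 6 other genes most like them were Eef1a1 (r = 0.97), Farsa (0.89), Eif3e (0.89), Rack1 (0.88), Eef1g (0.88) and Srsf10 (0.86). Eef1a1 and Eef1g are elongation factor subunits and Rack1 is itself a small subunit protein. The median r was 0.87 over 82 ribosomal protein genes, each of which is part of the sum, and 0.04 over 3193 other genes. Among the ribosomal protein genes it was lowest for Rps9 (0.14).

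Related genes were taken as lists, to be read against all genes compared, of which 10.8% were higher and 18.3% lower over all cells, and 14.9% and 24.5% without other-lineage labels. Of 20 measured translation genes known for an oligopyrimidine start, 1 was higher and 0 were lower, with a median of 0.25. Without other-lineage labels 4 were higher and 0 lower, with a median of 0.36, and in HSC-1 without those labels 0 passed in either direction. Npm1, a nucleolar chaperone, had 2322 CPM in spleen and 1473 CPM in bone marrow (ratio 1.58), followed by the elongation factor subunit Eef1d (ratio 1.48). The lowest were Pabpc1, the poly(A)-binding protein (1.29-fold lower in spleen), and the elongation factor Eef2 (1.06-fold lower). Of 12 genes for ribosomal protein chaperones and late assembly, 3 were higher and 0 were lower, with a median of 0.46. Grwd1, a chaperone of Rpl3, had 26.5 CPM in spleen and 14.7 CPM in bone marrow (ratio 1.80). Eif6, which keeps the subunits apart until assembly ends, had 152 CPM in spleen and 97.4 CPM in bone marrow, and the third was Pdcd2 (ratio 1.52). Efl1 and Sbds, which release Eif6, had ratios of 0.944 and 1.05. Without other-lineage labels 8 of the 12 were higher and 0 lower, and the median was 0.81, where 14.9% of all genes were higher and 24.5% lower. In HSC-1 without those labels 0 of 12 passed in either direction, with a median of 0.19, where 1.63% of all genes were higher and 2.17% lower.

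Of 16 measured regulators of ribosomal protein translation, 2 were higher and 2 lower in spleen, where 10.8% of all genes were higher and 18.3% lower, so the share is near that of all genes. Without other-lineage labels 4 were higher and 3 lower, and in HSC-1 without those labels 0 of 16 passed in either direction. Eif2s1, the alpha subunit of eIF2, had 130 CPM in spleen and 80.4 CPM in bone marrow (ratio 1.61), and Eif4ebp1, the eIF4E inhibitor that mTOR phosphorylates, had 110 CPM in spleen and 71.1 CPM in bone marrow (ratio 1.55). Tsc1, an inhibitor of mTOR signalling, had 20.9 CPM in spleen and 38.6 CPM in bone marrow (1.85-fold lower), and Eef2k, the kinase that inhibits Eef2, had 63.5 CPM in spleen and 115 CPM in bone marrow (1.82-fold lower). Larp1, which binds oligopyrimidine starts, had a ratio of 1.16 and Mtor 1.24. Eif2ak3, which encodes the stress kinase PERK, was below the level compared, with 9.18 CPM in spleen and 9.56 CPM in bone marrow. Of 5 genes downstream of free 5S particles, 0 were higher and 1 lower, and without other-lineage labels 1 was higher and 1 lower. Cdkn1a, the p53-induced cell cycle inhibitor, had 16.4 CPM in spleen and 41.4 CPM in bone marrow (2.53-fold lower), Mdm2 was 1.31-fold lower, and Trp53 and Myc had ratios of 1.13 and 1.02. Of 18 ribosomal protein genes linked to Diamond-Blackfan anaemia in humans, 0 passed 1.5-fold, against the 10.8% higher and 18.3% lower of all genes, with a median log2 ratio of -0.01 and 7 of 18 above 0. Without other-lineage labels 0 passed as well, but the median was 0.16, with 12 of 18 above 0.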

How the data were processed

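RNA was measured in 1 spleen and 1 bone marrow library of LSK cells. The deposited count tables hold raw UMI counts per gene and cell; per the labels' design text, alignment was to mm10 at an average depth of 27000 reads per cell and the authors counted with Cell Ranger 3.1.0, while the submitters' processing notes name Seurat 3.1.5 and mm9, and the kit is version 3 or 3.1. The deposited cell table gives cluster, atlas label and columns whose unit is a score; how the authors made these scores is not given in the sources used here, nor are the cell filter and the handling of doublets. All deposited cells were kept and no doublet caller was run.

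Symbols came from GENCODE M21 (31011 of 31053 identifiers matched). Counts were summed per library or cluster and scaled to CPM, without length correction, since a 3′ assay counts a molecule once. Coding length is the longest annotated coding sequence. Genes averaging 10 CPM or more were compared at 1.5-fold, as the design allows no test. Ratios have exact Poisson intervals and shares have Clopper-Pearson intervals. Similar 3′ ends were found with BLAST 2.17.0 (at least 95% identity over 150 of the last 500 bases), for 21 of the 86 genes. Promoter sequences were RefSeq GRCm38.p6; 66 genes matched. Cells of other lineages were left out by atlas label (a word for dendritic, mast, basophil, eosinophil, T, NK, B, plasma, monocyte or macrophage, monocyte progenitors included) or by markers (over 1000 CPM and at least 3 UMIs). Tools were Python 3.11.15, pandas 2.3.3, scipy 1.17.1 and edgeR 4.0.16 (TMM factors only); the size calls were checked on simulated counts.

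The genes and lists were chosen with earlier results of these data known. Named were the 10 highest and 10 lowest ratios at 50 CPM or more, the 2 highest and 2 lowest per cluster and list, the stalk genes, paralogs and other fixed genes; those that repeat a pattern already described are given by count. Some named genes are not reported here.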

Additional observations from a re-analysis of the deposited data

How the results depend on the processing

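No paired analysis was possible because each tissue has 1 library. With 1 library per tissue, neither leaving out a replicate nor a test could be run, and a change of more than the counting interval was taken as a move. The ratio of the ribosomal protein share, 0.992 as reported, was 1.067 with TMM scaling, 1.069 centred on the median gene, 0.989 over UMIs outside these genes and 0.989 without mitochondrial genes. It was 0.939 with each cell weighted alike, 0.976 thinned, 0.981 with clusters weighted alike, 1.071 without other-lineage labels, 1.069 without other-lineage markers and 0.995 with further ribosomal protein genes added. The median log2 ratio, 0.02 as reported, was 0.13 with TMM scaling (0.128) and centred (0.131), -0.062 with cells weighted alike, -0.0043 thinned, 0.136 without other-lineage labels, 0.129 without the markers, -0.0028 over the usual subunit genes, -0.0035 with no filter and 0.010 at 100 CPM or more. The genes at least 1.5-fold higher, 1 as reported, numbered 2 with TMM scaling, 2 centred, 3 without other-lineage labels, 3 without the markers, and 0 with cells weighted alike, thinned, with clusters weighted alike or over the usual subunit genes. At the smallest fold limit tried 7 were higher and 5 lower, and at 2-fold 0 were higher. Of all genes compared, 10.8% were higher and 18.3% lower as reported, and 14.9% and 24.5% without other-lineage labels. For the other settings and fold limits the shares of all genes are not given here. Those counts, and the counts of departing genes below, therefore stand without a background. With no filter 1 gene, Rpl3l, was lower. The genes departing 1.5-fold from the median gene of the set, 1 as reported, numbered 5 without other-lineage labels, 4 without the markers, 2 with no filter, 13 at the smallest fold limit and 0 with cells weighted alike, thinned, with clusters weighted alike, over the usual subunit genes or at 2-fold. The median ratio over clusters, 0.974 as reported, was 0.999 thinned, 1.039 without other-lineage labels and 1.043 without the markers. The cause of these moves was not tested. The Spearman rho with coding length stayed between 0.58 and 0.67 over the settings tried for whole libraries. Some of these settings were chosen after seeing the data. Within single clusters the range was wider, from 0.34 in DCP to 0.70 in HSC-1, and 0.72 in HSC-1 without other-lineage labels.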

Other observations

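The deposited cell table holds an ER stress score per cell, and the share of ribosomal protein UMIs can be set beside it within each library and cluster. Cells of 1 library are not replicates, so these values are a description. In HSC-1 the Spearman rho was -0.02 over 1539 spleen cells and 0.004 over 5049 bone marrow cells. In HSC-1 without other-lineage labels, the quartile of cells with the lowest score had a median share of 29.97% in spleen and 28.8% in bone marrow, and the quartile with the highest score had 30.6% in spleen and 28.8% in bone marrow. Further values in spleen were -0.35 in DCP, -0.24 in MP and -0.53 in MEP, and in bone marrow 0.03 in DCP, -0.25 in MP and -0.15 in MEP. In spleen the rest were -0.06 in HSC-2, 0.004 in HSC-3, 0.10 in LP and 0.09 in MCP. In bone marrow they were 0.11 in HSC-2, 0.08 in HSC-3 and -0.06 in LP. The rho was below 0 in 5 of 8 clusters in spleen and 3 of 7 in bone marrow. In spleen MEP the share also had a rho of -0.54 with the number of UMIs per cell. With the stemness score rho was 0.39 in spleen HSC-3 and 0.46 in bone marrow HSC-3. In MEP it was -0.35 in spleen and 0.24 in bone marrow.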
